A study of Mus musculus with 9 samples.

Results

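Pou5f1, Sox2, Nanog and Sall4 encode the core transcription factors of mouse pluripotency. They were taken by symbol from the count table, as 4 of its 24421 genes, and all 4 were among the 14513 genes with enough reads to be tested. RNA sequencing covered D3 cells, a mouse embryonic stem (ES) cell line kept without feeder cells on gelatin, in serum and leukemia inhibitory factor (the ESGRO product). The 9 libraries form 3 groups of 3. VT cells stably carry the pCDH-control vector, LAMP2A cells overexpress LAMP2A and had no added compound, and LAMP2A+DM-αKG cells overexpress LAMP2A and received DM-αKG at 4 mM for 72 h. LAMP2A, one product of the Lamp2 gene, sits in the lysosomal membrane as the receptor of chaperone-mediated autophagy, and DM-αKG is a form of α-ketoglutarate that crosses membranes. Vector cells given DM-αKG were not analysed here, so what the compound does without LAMP2A has no value below. The labels do not say whether a line is 1 clone or whether the libraries of a group are separate cultures, so every p-value rests on the spread between these samples alone, and that spread may be technical.

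OCT4, the protein of Pou5f1, is a POU-domain factor that binds DNA side by side with the HMG-box factor SOX2. NANOG is a homeodomain factor and SALL4 a zinc-finger factor of the same circuit. In ES cells these proteins occupy one another's regulatory DNA and their own, keep genes of the undifferentiated state on, and hold many lineage regulators low. Loss of OCT4 turns ES cells towards trophoblast, and loss of NANOG favours primitive endoderm. NANOG levels vary between ES cells of one culture.

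Pou5f1 lies on the forward strand of chromosome 17 (mm10, 35506018 to 35510772), Sox2 is a gene of 1 exon on chromosome 3 (34650405 to 34652461), Nanog lies on chromosome 6 (122707489 to 122714633) and Sall4 on the reverse strand of chromosome 2 (168748332 to 168767943), by the GENCODE M21 annotation. RefSeq's promoter table for GRCm38.p6 gave a window of 300 bases, from 250 before to 50 after the annotated start, for 3 of the 4 genes, with a second window from another start for both Pou5f1 and Nanog. These windows are shown because the members moved together and because OCT4 and SOX2 are themselves factors that bind such DNA. They are chr17:35505782-35506081 for Pou5f1, chr3:34649745-34650044 for Sox2 and chr6:122707239-122707538 for Nanog, the first window of each gene, all on the forward strand and written 5′ to 3′. Positions below count from RefSeq's start, which for Sox2 lies at 34649995, 410 bases before the GENCODE gene start, so this window ends ahead of the GENCODE gene. Capitals mark every match, on either strand, to the 7 motifs searched.
Pou5f1: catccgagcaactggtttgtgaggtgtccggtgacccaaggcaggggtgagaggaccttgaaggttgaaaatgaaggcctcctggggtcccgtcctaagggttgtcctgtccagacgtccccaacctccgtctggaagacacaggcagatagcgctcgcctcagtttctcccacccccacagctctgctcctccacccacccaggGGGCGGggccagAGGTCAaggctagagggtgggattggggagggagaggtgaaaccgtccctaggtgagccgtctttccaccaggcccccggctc
Sox2: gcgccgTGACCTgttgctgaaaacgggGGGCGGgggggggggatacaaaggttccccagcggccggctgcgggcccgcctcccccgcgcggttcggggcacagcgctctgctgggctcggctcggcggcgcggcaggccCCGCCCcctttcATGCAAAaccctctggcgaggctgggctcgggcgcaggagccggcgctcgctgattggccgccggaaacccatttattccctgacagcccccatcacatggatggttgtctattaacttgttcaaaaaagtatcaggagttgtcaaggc
Nanog: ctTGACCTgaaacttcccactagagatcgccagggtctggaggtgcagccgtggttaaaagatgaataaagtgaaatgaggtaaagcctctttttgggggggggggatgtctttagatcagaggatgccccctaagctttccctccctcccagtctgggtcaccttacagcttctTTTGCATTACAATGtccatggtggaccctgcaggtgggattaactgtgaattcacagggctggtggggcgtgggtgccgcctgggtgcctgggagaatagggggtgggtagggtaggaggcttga
The motifs were the octamer ATTTGCAT and its shorter form TTTGCAT, both recognised by POU factors, the SOX core CATTGT, the shorter octamer followed by any base and then ACAATG, the nuclear receptor motif AGGTCA, the GC box GGGCGG and TATAAA. The shorter form lies within the octamer, and the paired motif holds both the shorter octamer and a SOX core.

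The Nanog window held TTTGCAT at -75 to -69 and a SOX core read on the other strand (ACAATG) at -67 to -62, with 1 base between them. This pairing of an octamer with a SOX core was present in 2 of 32817 distinct windows of the RefSeq table (0.00609%), and both are windows of Nanog, which has 2 annotated starts in the table. TTTGCAT alone was in 4.63% of windows and CATTGT in 12.6%. The Sox2 window held the shorter octamer on the reverse strand (ATGCAAA) at -99 to -93, a GC box on each strand and 1 copy of AGGTCA, read on the other strand. The Pou5f1 window held a GC box at -45 to -40 and AGGTCA at -33 to -28, with no octamer and no SOX core among these letters. The second Pou5f1 window (chr17:35508557-35508856), from a start inside the gene, had a SOX core read on the other strand (ACAATG) at -158 to -153 and a GC content of 45.7%. AGGTCA was present in 16.3% of all windows and GGGCGG in 35.6%. TATAAA (13.6% of windows) and ATTTGCAT (1.74%) were in none of the 3. GC content of the windows shown was 62.7% for Pou5f1, 66.3% for Sox2 and 54.3% for Nanog, against a median of 52.7% over all windows. A match is a description of the letters and shows no binding.

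Libraries held 23636074 to 32809875 counted reads, and log2 values of libraries of one group correlated at 0.994 to 0.997 across genes. Lamp2, counted over all its splice forms and over both the introduced and the endogenous copy, ranged over 56.9 to 60.0 CPM (counts scaled to library size) for VT, 403 to 407 for LAMP2A and 95.4 to 99.3 for LAMP2A+DM-αKG, below called the treated libraries. The treated group thus carried less Lamp2 RNA than the LAMP2A group, and whether this had a part in the values below was not tested. Changes were tested with edgeR's quasi-likelihood test on the counts of all 9 libraries, with Benjamini-Hochberg adjustment over all genes tested. Unless a p-value is given, genes named with a change were called. A gene was called at an adjusted p under 0.05.

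Pou5f1 had 1415, 1456.5 and 1286 CPM in the VT libraries, 318, 323 and 328 in the LAMP2A libraries, and 974, 978 and 988 in the treated libraries. The 3 groups did not overlap: VT was highest, LAMP2A lowest, and the treated libraries lay between them. Pou5f1 was 4.29-fold lower in LAMP2A than in VT (log2 fold change -2.10, SE 0.035, adjusted p = 9.1e-34 by edgeR's quasi-likelihood test). It was 3.03-fold higher with DM-αKG than without (log2 fold change 1.60, SE 0.035, adjusted p = 2.84e-30). In the treated libraries Pou5f1 remained at 70.3 to 71.3% of the VT mean (log2 fold change against VT -0.50, SE 0.033, adjusted p = 7.62e-15).

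Sox2, the binding partner of OCT4, had 419, 445 and 430.1 CPM in the VT libraries, 233, 232 and 229 in the LAMP2A libraries, and 393, 409 and 393 in the treated ones. Again no group overlapped another, although the highest treated library (409) came near the lowest VT library (419). Sox2 was 1.86-fold lower in LAMP2A (log2 fold change -0.90, SE 0.030, adjusted p = 1.22e-24) and 1.72-fold higher with DM-αKG than without it (log2 fold change 0.78, SE 0.030, adjusted p = 9.44e-23). Treated libraries reached 91.0 to 94.8% of the VT mean, and the remaining difference passed the test (log2 fold change -0.12, SE 0.029, adjusted p = 0.00105).

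Nanog had 974, 1020.5 and 1005 CPM in the VT libraries, 273, 267 and 269 in the LAMP2A libraries, and 900.0, 922 and 920.1 in the treated ones. Its LAMP2A libraries were far below both other groups, and all 3 treated libraries were below all 3 VT libraries. The fall in LAMP2A was 3.71-fold (log2 fold change -1.89, SE 0.030, adjusted p = 1.71e-34) and the rise with DM-αKG 3.39-fold (log2 fold change 1.76, SE 0.030, adjusted p = 1.59e-33). Nanog in the treated libraries was at 90.0 to 92.2% of the VT mean (log2 fold change -0.13, SE 0.029, adjusted p = 2.16e-04).

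Sall4 had 273, 262 and 261 CPM in the VT libraries, 190.3, 189 and 189 in the LAMP2A libraries, and 241, 237 and 241 in the treated ones. The groups kept the same order without overlap, over a narrower span than for the other 3 genes. Sall4 was 1.40-fold lower in LAMP2A (log2 fold change -0.49, SE 0.029, adjusted p = 3.27e-17) and 1.26-fold higher with DM-αKG (log2 fold change 0.34, SE 0.029, adjusted p = 7.96e-13). Its treated libraries lay at 89.3 to 91.0% of the VT mean (log2 fold change -0.15, SE 0.029, adjusted p = 4.71e-05).

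**Figure D1:**
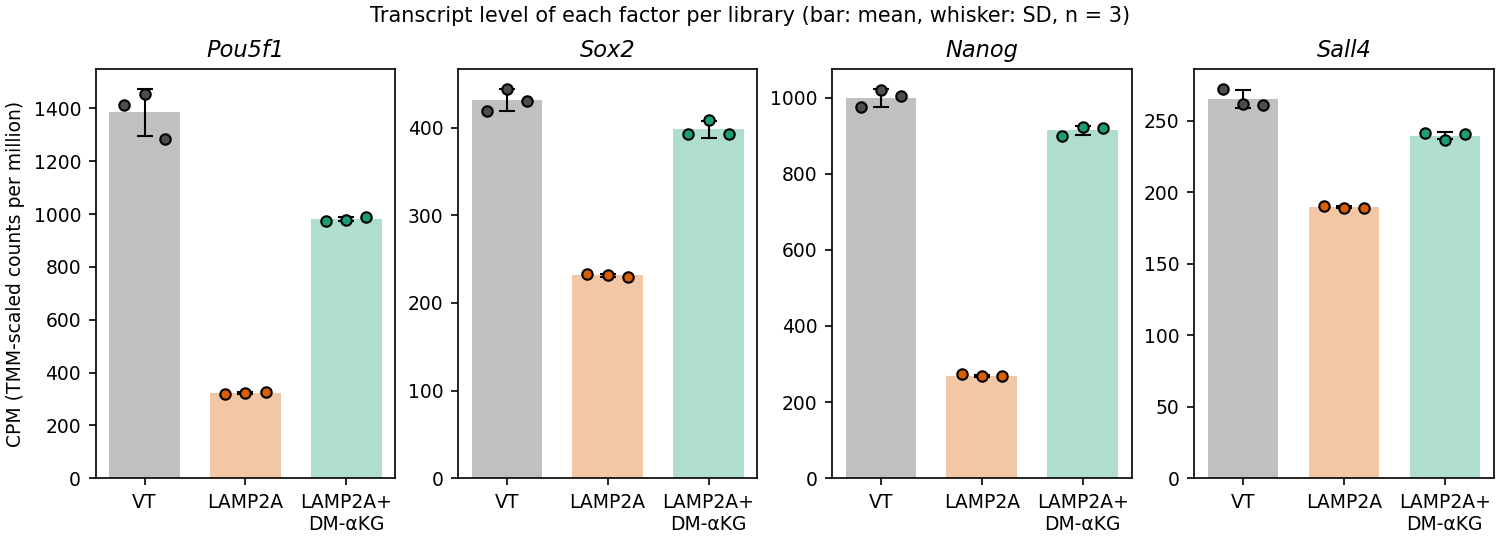
CPM of each factor in every library (points), with the group mean (bar) and SD (whisker, n = 3), for VT, LAMP2A and LAMP2A+DM-αKG. In each panel the LAMP2A libraries are lowest and the treated libraries lie between them and VT; the scale of the vertical axis differs between panels.

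These calls stand against a large background of change. Against VT, 42.1% of the genes tested were called lower in LAMP2A and 43.0% higher (85.1% in all), and for 85.0% the libraries of the groups did not overlap. With DM-αKG against LAMP2A, 41.1% were called higher and 42.1% lower (83.2% in all), and 85.5% did not overlap. Between LAMP2A+DM-αKG and VT, 29.3% were called lower and 29.3% higher (58.7% in all), and 61.2% did not overlap. A call or a lack of overlap for all 4 factors is therefore near what most genes show, and the size of the change says more about where each factor stands.

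By size, 2.52% of genes tested had a lower log2 fold change than Pou5f1 in LAMP2A against VT, and 3.22% had a lower one than Nanog. The shares were 11.0% for Sox2 and 23.7% for Sall4, so that Sall4 lay well inside the range of ordinary genes. With DM-αKG against LAMP2A, the log2 fold change of Nanog was above that of 97.0% of genes, that of Pou5f1 above 96.4%, that of Sox2 above 88.3% and that of Sall4 above 71.5%. Both comparisons use the same LAMP2A libraries, so the second is not independent of the first. The median log2 fold change over all genes was 0.01 in LAMP2A against VT and -0.00125 in LAMP2A+DM-αKG against LAMP2A.

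The factors differed in how far they fell. The approximate 95% interval of the log2 fold change in LAMP2A against VT was -2.17 to -2.03 for Pou5f1, -1.95 to -1.83 for Nanog, -0.96 to -0.84 for Sox2 and -0.54 to -0.43 for Sall4. No interval overlapped the next. With DM-αKG against LAMP2A the order of the first pair was turned, with 1.70 to 1.82 for Nanog and 1.53 to 1.67 for Pou5f1. The interval of Sox2 was 0.72 to 0.84 and that of Sall4 0.28 to 0.40. Against VT, the treated group gave -0.57 to -0.43 for Pou5f1, whereas the intervals of Sox2 (-0.18 to -0.06), Nanog (-0.19 to -0.07) and Sall4 (-0.21 to -0.09) overlapped one another. In the authors' deposited table for LAMP2A against VT, Pou5f1 had a log2 fold change of -2.10, Sox2 of -0.89, Nanog of -1.89 and Sall4 of -0.48. These values are close to those of the fit made here.

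**Figure D2:**
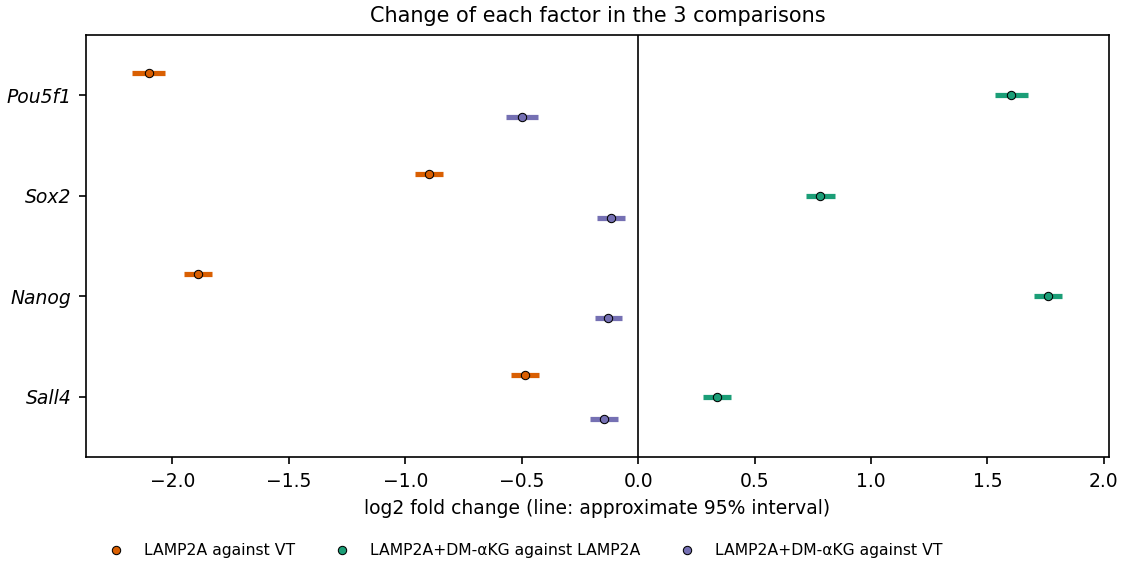
Log2 fold change (horizontal axis) of each factor in the 3 comparisons, with its approximate 95% interval as a line. Against VT the LAMP2A points run from -2.10 for Pou5f1 to -0.49 for Sall4, and in the treated group Pou5f1 stays at -0.50 while the other factors lie between -0.15 and -0.12.

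Ratios of 2 factors inside a library do not depend on the scaling between libraries. The ratio of Pou5f1 to Sall4 reads was 5.19, 5.56 and 4.92 in the VT libraries, 1.67, 1.71 and 1.73 in the LAMP2A libraries, and 4.04, 4.13 and 4.11 in the treated ones. All treated libraries were above all LAMP2A libraries and below all VT libraries. The ratio of Sox2 to Nanog went the other way, since Sox2 fell less than Nanog: it was 0.43, 0.44 and 0.43 in the VT libraries, 0.86, 0.87 and 0.85 in the LAMP2A libraries, and 0.44, 0.44 and 0.43 in the treated ones. Here the treated and the VT libraries overlapped.

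For each of the 6 pairs the ratio in LAMP2A did not overlap the ratio in VT, nor that in LAMP2A+DM-αKG. The smallest p that 3 libraries against 3 allow in a 2-sided exact permutation test is 0.1, so no ratio could pass 0.05. The 18 ratio tests (6 pairs in 3 comparisons) are not separate results, since the pairs share factors and the comparisons share libraries. How often ratios of other gene pairs reach this smallest p was not tested. The p of 0.1 (0.12 adjusted over 18 tests) was reached in 15 of the 18. The other 3 were the comparisons of treated with VT libraries for the ratios that leave Pou5f1 out. Sox2 to Nanog differed by 0.01 on the log2 scale (exact permutation p = 0.6, adjusted p = 0.635), Sox2 to Sall4 by 0.03 (exact permutation p = 0.6, adjusted p = 0.635) and Nanog to Sall4 by 0.02 (exact permutation p = 0.9, adjusted p = 0.9). These p-values do not show that the ratios were equal. The ratios with Pou5f1 were lower in treated than in VT libraries without overlap, by -0.38 against Sox2, -0.37 against Nanog and -0.35 against Sall4 on the log2 scale.

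Pou5f1 to Nanog was the one ratio that was lowest in the treated group. It was 1.39 ± 0.0933 for VT, 1.2 ± 0.0274 for LAMP2A and 1.07 ± 0.0108 for the treated libraries (SD, n = 3). With DM-αKG, Pou5f1 stood at 70.7% ± 0.525 of its VT mean and Nanog at 91.4% ± 1.23.

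**Figure D3:**
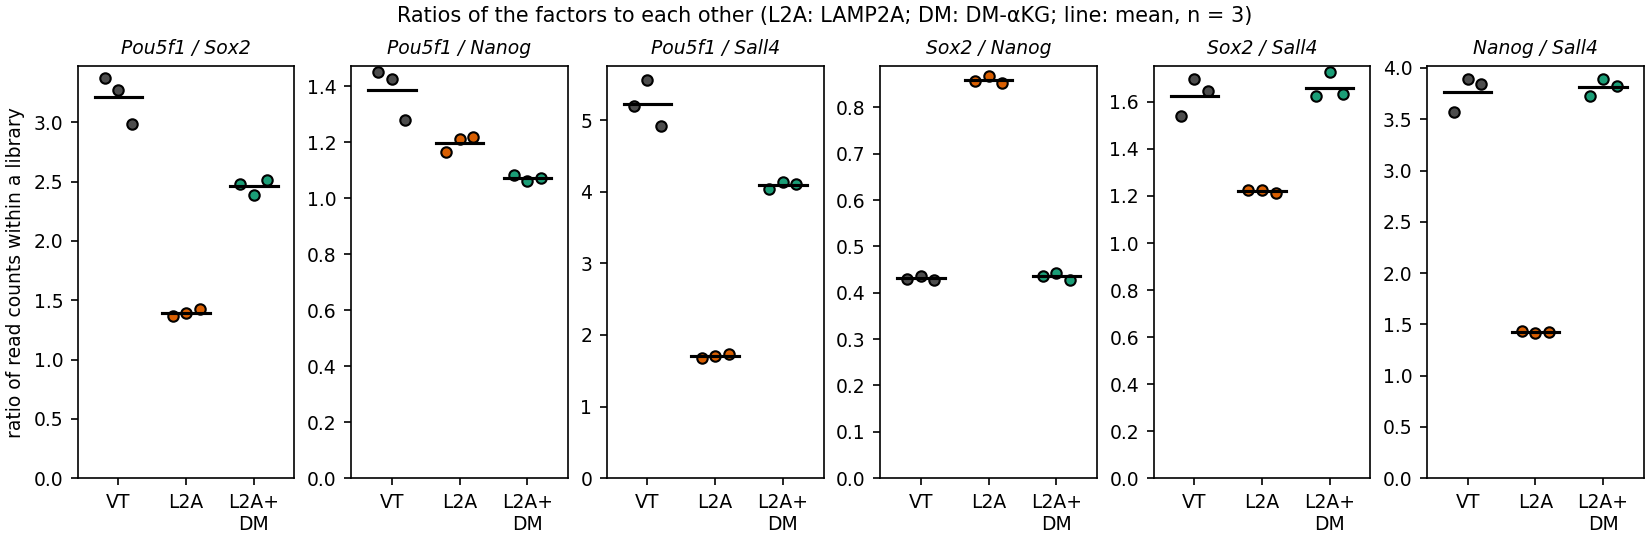
Ratio of read counts of each pair of factors inside a library (points) with the group mean (line), n = 3 per group; L2A stands for LAMP2A and DM for DM-αKG. Ratios with Pou5f1 on top stay below VT in the treated libraries, while Sox2 / Nanog goes from 0.43 in VT to 0.86 in LAMP2A and is 0.44 in the treated group.

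Levels of different genes can be compared only per length. Per kilobase of the longest coding transcript, Pou5f1 was at 1017 ± 65.4 CPM in VT, Nanog at 452 ± 10.6, Sox2 at 209.7 ± 6.13 and Sall4 at 52.3 ± 1.23 (SD, n = 3). The order was the same in the other groups. In LAMP2A, Nanog (121.9 ± 1.26 CPM per kilobase) and Sox2 (112.5 ± 0.98) came closest, and their libraries did not overlap (120.9 to 123.3 against 111.5 to 113.4). Pou5f1 was at 237 ± 3.41 and Sall4 at 37.4 ± 0.141 CPM per kilobase there. In LAMP2A+DM-αKG the levels were 719.6 ± 5.34 for Pou5f1, 413 ± 5.56 for Nanog, 193.5 ± 4.63 for Sox2 and 47.2 ± 0.464 for Sall4. With the length of all annotated exons joined, the Pou5f1 means were 616, 144 and 436 CPM per kilobase in VT, LAMP2A and treated libraries, and the order of the 4 genes held.

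Reads of the factors could be shared with overlapping genes or with copies. Sox2ot, a long noncoding RNA whose gene spans Sox2 on the same strand, has 0 exons over the Sox2 exon and averaged 1.65, 1.10 and 1.61 CPM in VT, LAMP2A and treated libraries. Of 9 annotated pseudogenes of Pou5f1 and Nanog, 1 was matched in the count table (Pou5f1-rs4, listed as Gm5712), with 107 reads over all libraries. Antisense genes are annotated over Pou5f1 (Gm19553) and Sall4 (Gm14261), and neither was matched in the table. The library kit marks strand, but no source used here gives the strand setting of the counting, so a share of antisense reads in these 2 counts was not tested.

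Genes whose pattern over the 9 libraries was most like each factor were found by the root mean square difference of centred log2 CPM among 10399 genes that averaged 5 CPM or more. The smaller this value, the more alike 2 patterns are. For Pou5f1 the nearest genes were Nfatc2ip (0.0525), Tcf15 (0.055) and Fblim1 (0.0594). For Nanog they were Pecam1 (0.032), which encodes the adhesion molecule CD31, Fbxo2 (0.0565) and Acp6 (0.0698). For Sox2 they were Slc25a5 (0.0172), an ADP/ATP carrier of mitochondria, Lyar (0.0202) and Las1l (0.0254). For Sall4 they were Ccnf (0.0202), which encodes cyclin F, Mcm7 (0.0227), a subunit of the replicative helicase, and Nhp2l1 (0.0247). Among the factors themselves Pou5f1 and Nanog were closest (0.159), then Sox2 and Sall4 (0.206), and Pou5f1 and Sall4 were farthest apart (0.694). The 9 libraries share 3 group means, so these values describe mostly the pattern of the groups.

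In the neighbourhood of the factors, 15 genes within 100000 bases were in the count table and 9 were tested. In LAMP2A against VT, 3 of the 9 were called higher and 6 lower, where 85.1% of all genes were called. With DM-αKG against LAMP2A 3 were called higher and 2 lower, and 4 did not pass, where 83.2% of all genes were called. Tcf19, which starts 1953 bases beyond Pou5f1, did not share its fall (16.4, 17.9 and 11.7 CPM in VT, LAMP2A and treated libraries; log2 fold change in LAMP2A 0.13, adjusted p = 0.046). Cchcr1, the next gene, had a log2 fold change of -0.14 in LAMP2A (adjusted p = 0.00495). Of the neighbours of Nanog, named after their values were seen, Gdf3, a TGF-beta family ligand of ES cells, fell and rose with it (log2 fold changes -1.59 and 1.27). Slc2a3, a glucose transporter gene 13176 bases from Nanog, was higher in LAMP2A (log2 fold change 0.59) and did not pass with DM-αKG (-0.05, adjusted p = 0.0609).

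ES cell markers moved with the factors, while most tested markers of extraembryonic endoderm, trophoblast and fibroblasts went the other way. Of 10 ES cell markers other than the factors, 10 were lower in LAMP2A, and their summed level was 7461 to 7678 CPM for VT, 1566 to 1582 for LAMP2A and 6113 to 6128 for the treated libraries, so the labelled cell type was met in VT. The counts for the other lists are descriptions, since some of their members had enough reads for the test only through the LAMP2A libraries and so had to differ. Beside the counts of every marker list, 43.0% of all genes tested were called higher in LAMP2A and 42.1% lower. Among members testable without the LAMP2A libraries, 8 of 9 extraembryonic endoderm, 5 of 5 trophoblast and 4 of 5 fibroblast markers were higher in LAMP2A. The same count was 3 of 5 for neural markers, with 2 lower, and 2 of 4 for mesoderm markers, with 0 lower. Extraembryonic endoderm markers were higher in 10 of 11 tested (2 of them testable only through LAMP2A), with sums of 43.7 to 45.0 CPM for VT, 497 to 502 for LAMP2A and 66.8 to 71.0 for the treated libraries, and Afp at 0 in VT. Trophoblast markers were higher in 7 of 7 tested (2 only through LAMP2A), out of 10 listed. Their sums were 76.6 to 81.5, 1217 to 1232 and 106 to 111 CPM in the same order. Most of the LAMP2A sum came from the keratin genes Krt8 (37.0, 619 and 48.3 CPM in the 3 groups) and Krt18 (8.09, 462 and 12.0 CPM). Elf5, of trophoblast stem cells, and Tpbpa and Prl3d1, of later trophoblast, were at 0 in VT and in LAMP2A+DM-αKG, and Tpbpa and Prl3d1 also in LAMP2A. Fibroblast and feeder markers were higher in 9 of 10 tested (5 only through LAMP2A), out of 12 listed, with sums of 1419 to 1622, 4073 to 4102 and 2099 to 2183 CPM, and Lum at 0 in VT. Most of that sum came from Fn1 (1170, 2944 and 1708 CPM in the 3 groups) and Vim (361, 1016 and 435 CPM), genes that many cell types express. The collagen gene Col1a1 was at 0.968, 59.2 and 0.99 CPM and Col3a1 at 0.0865, 34.8 and 0.626 CPM. The treated mean of Col3a1 came mostly from replicate 1 (1.77 CPM, beside 0.077 and 0.0333 in the others). Neural markers were higher in 4 of 6 tested (1 only through LAMP2A), out of 8 listed. Their sums were 128 to 133, 340.2 to 349.8 and 152 to 154 CPM. Most of the rise in LAMP2A came from Nes (47.4, 265 and 50.3 CPM). Tubb3 (54.5, 40.7 and 78.5 CPM) and Map2 (12.4, 9.53 and 13.3 CPM) were lower in LAMP2A than in VT. Mesoderm markers were higher in 4 of 6 tested (2 only through LAMP2A), out of 8 listed, with sums of 3.22 to 3.66, 20.9 to 22.7 and 2.89 to 3.79 CPM and Msgn1 at 0 in all groups. In bulk RNA, fewer cells that express a factor and less of its RNA per cell cannot be told apart, and the part of other cell types in the falls was not tested.

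Genes that OCT4, SOX2 and NANOG are known to bind and activate in ES cells mostly moved the same way as the factors. Some genes stand in more than 1 of the lists above and below. Every ES cell marker counted above is also among the core network genes or the partner factors below. Of 20 such genes of the core network, 16 were lower and 3 higher in LAMP2A than in VT, beside 42.1% and 43.0% of all genes. Their median log2 fold change was -1.61, beside 0.01 over all genes. With DM-αKG 16 were higher and 4 lower than without (median 1.23), beside 41.1% and 42.1% of all genes. Tdgf1, a co-receptor of Nodal, was at 1085, 128 and 1085 CPM in VT, LAMP2A and treated libraries (log2 fold change against VT 0.000127, adjusted p = 0.999). Zfp42, the ES cell marker REX1, was at 641, 151 and 485 CPM, and Spp1, the gene of osteopontin, was at 393, 86.3 and 261 CPM. L1td1, an RNA-binding protein of ES cells, had log2 fold changes of -1.94 and 1.22. The 3 higher members, named for their small number, were Lefty1 (log2 fold change 1.79), Lin28a (0.94) and Trim71 (0.26). Against VT, 17 of the 20 were lower in the treated group (median -0.32), beside 29.3% of all genes.

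Of 22 transcription factors that work with the core factors, 16 were lower and 5 higher in LAMP2A (median -0.68), beside 42.1% and 43.0% of all genes. With DM-αKG 15 were higher and 5 lower (median 0.45), beside 41.1% and 42.1% of all genes. Esrrb, a nuclear receptor that binds with OCT4 and NANOG, was at 1481, 252 and 1174 CPM in the 3 groups. Klf4 was at 338, 57.9 and 354 CPM. Nr0b1, which encodes the OCT4-binding protein DAX1, had log2 fold changes of -2.78 and 2.15, and Tfcp2l1 of -2.44 and 2.17. These 4 were named for the smallest p of the list in LAMP2A against VT, so large changes were selected for. Each fell further in LAMP2A than any of the core factors by its log2 fold change, although the difference itself was not tested. The median of the whole list (-0.68) lay between the values of Sall4 (-0.49) and Sox2 (-0.90).

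**Figure D4:**
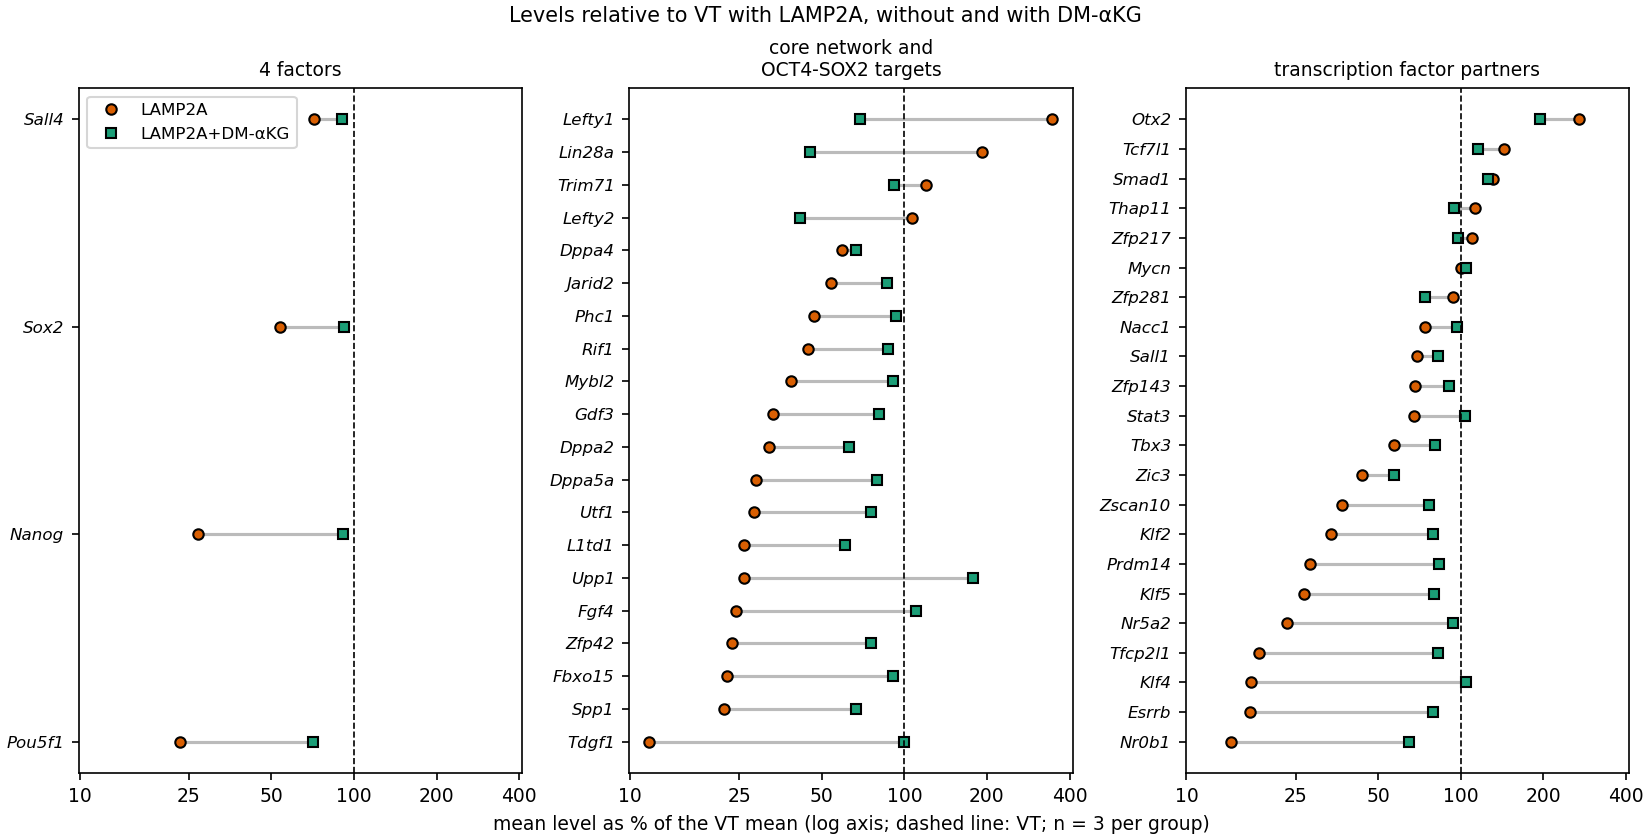
Mean level in LAMP2A (circles) and in LAMP2A+DM-αKG (squares) as a percent of the VT mean (log axis, dashed line at VT, n = 3 per group) for the 4 factors, 20 genes of the core network and 22 partner factors. Pou5f1 goes from 23.3% to 70.7% and Nanog from 27% to 91.4%, while a few genes such as Lefty1 lie above VT in LAMP2A.

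Chromatin and coactivator partners of the factors showed no common direction. Of 27, 14 were higher and 10 lower in LAMP2A (median 0.07), beside 43.0% and 42.1% of all genes. Rbbp7, a histone-binding subunit of NuRD and PRC2, rose from 373 to 1256 CPM and was at 422 CPM with DM-αKG. Wdr5, a subunit of MLL complexes that binds OCT4, had log2 fold changes of -1.03 and 0.83, Parp1 of -0.77 and 0.88, and the NuRD subunit gene Mta1 of 0.99 and -0.80. Of 10 enzymes that modify the factors as proteins, 5 were higher and 4 lower in LAMP2A, beside 43.0% and 42.1% of all genes. With libraries scaled by their total alone, 2 of the 10 were lower. Setd7, a lysine methyltransferase, went from 15.0 to 113 CPM and to 20.8 with DM-αKG. Akt1, a kinase, had log2 fold changes of 1.83 and -1.61, Fbxw8 of 0.63 and -0.49, and Prkce of 0.92 and -0.94.

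Of 14 repressors of the factors' genes, 10 were higher and 3 lower in LAMP2A, beside 43.0% and 42.1% of all genes, and with DM-αKG 11 were lower and 3 higher, beside 42.1% and 41.1%. Of the 14, 3 were testable only through the LAMP2A libraries (Cdx2, Nr2f1 and Nr2f2) and so had to differ. Among the other 11, 7 were higher and 3 lower in LAMP2A, and 8 were lower and 3 higher with DM-αKG. Nr2f2, the orphan receptor COUP-TFII that binds the Pou5f1 promoter, rose from 0.088 to 30.5 CPM and was at 0.423 CPM with DM-αKG. Gata6, which opposes Nanog in early endoderm, was at 2.81, 41 and 11.1 CPM. Gata4 had log2 fold changes of 2.35 and -1.49. Foxd3 went against the list's name, at -2.54 and 1.47, and is known as a factor that ES cells need. The other lower members were Trp53 (76.1% of the VT mean in LAMP2A and 87.1% with DM-αKG) and Ehmt2 (73.9% and 88.5%).

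Of 24 lineage regulators in the count table that the core factors hold low in ES cells, 19 were tested. The filter on low counts favoured genes that are high in LAMP2A, and 6 of the 19 were testable only through those libraries (Cdx2, Dlx5, Hand1, Hoxb1, Otx1 and Pax3). Among the other 13, 12 were called higher in LAMP2A, beside 43.0% of all genes, and 1 was not called. With DM-αKG 10 were lower and 1 higher, beside 42.1% and 41.1% of all genes. These counts are a description of the members with reads. Hand1, a trophoblast and mesoderm factor, was at 0.294, 59.8 and 0.359 CPM. Meis1 was at 1.21, 62.9 and 1.04 CPM and the endoderm factor gene Foxa2 at 0.176, 25.7 and 0.695 CPM. In the treated group against VT, 10 of the 19 were not called, while 58.7% of all genes tested were called. Of the 19, the 6 testable only through LAMP2A had few reads in both of these groups. Dlx5 had 0 reads over the VT and 1 over the treated libraries, and Hand1 had 23 and 30. A missing call for such genes does not show a return to the VT level.

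Relatives of the factors did not all go with them. Of 14 other POU genes listed, 8 were tested (1, Pou3f3, only through LAMP2A). In LAMP2A 5 were lower and 2 higher, beside 42.1% and 43.0% of all genes. Pou2f3 went from 9.69 to 0.483 CPM and was at 12.3 CPM with DM-αKG, and Pou4f2 was at 45.3, 6.01 and 28.5 CPM. Pou2f1, the broadly expressed OCT1, changed little (log2 fold changes -0.24 and 0.28), and Pou3f1, a factor of primed and neural cells, was higher in LAMP2A (1.06) and lower with DM-αKG (-1.96). Of the relatives of Sox2, Sox15 was lower in LAMP2A (log2 fold change -2.16) and Sox1 (0.15, adjusted p = 0.0314) and Sox3 (1.19) were higher.

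Within the SALL family Sall1 went the same way as Sall4, at 276, 191 and 227 CPM in VT, LAMP2A and treated libraries (log2 fold changes -0.53 and 0.25). Sall2, which is linked to differentiated cells, went the other way, from 5.49 to 59.0 CPM and to 5.40 CPM with DM-αKG (log2 fold changes 3.42 and -3.44). Sall3 had a log2 fold change of 0.11 in LAMP2A (adjusted p = 0.0626), which passed when libraries were scaled by their total alone, and was lower with DM-αKG (-0.69). With DM-αKG against VT, Sall2 did not pass (log2 fold change -0.02, adjusted p = 0.903), while Sall4 (-0.15) and Sall1 (-0.28) were lower.

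**Figure D5:**
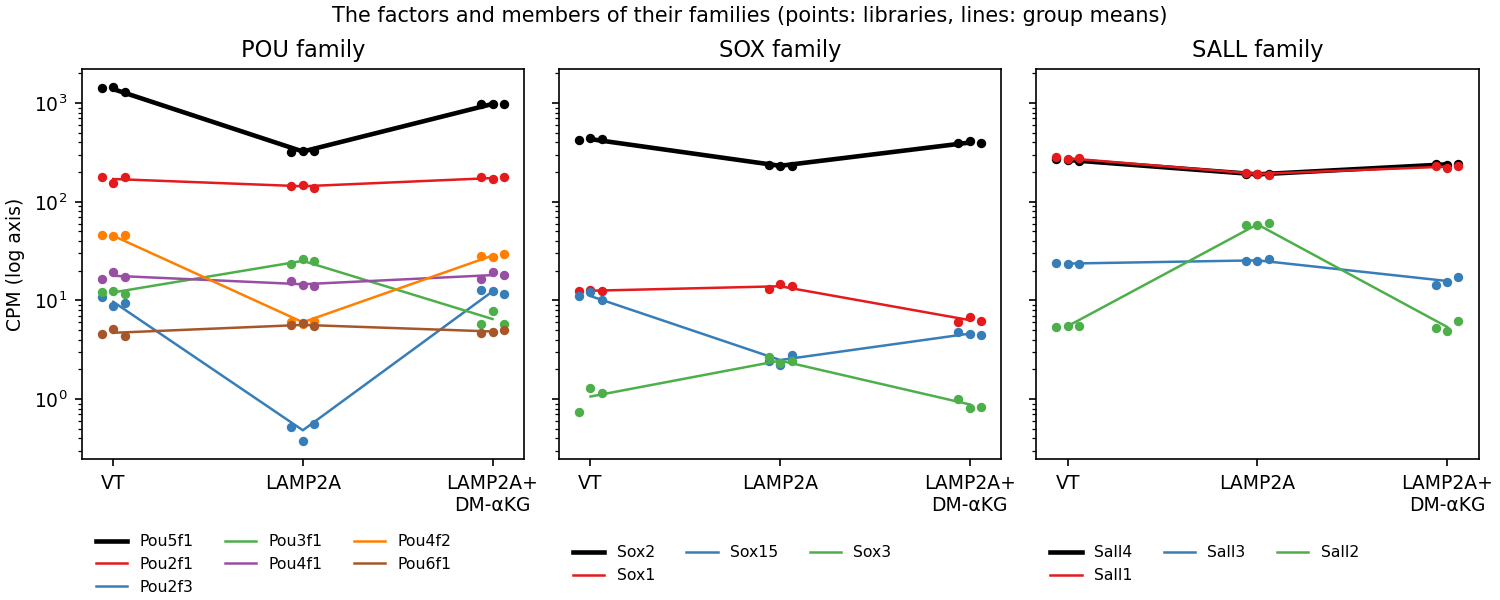
CPM on a log axis for each factor (thick line) and members of its family (thin lines) in VT, LAMP2A and LAMP2A+DM-αKG; points are libraries and lines join group means, and POU genes that averaged 5 CPM or more are drawn. Sall2 rises from 5.49 to 59.0 CPM where Sall4 falls from 265 to 189, and Pou2f3 and Pou4f2 fall with Pou5f1.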

How the data were processed

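RNA-seq libraries were made with a stranded mRNA kit, per the labels' protocols. The authors deposited raw counts per gene symbol, made with STAR 2.7.1, HTSeq 0.11.2 and build mm10 per the submitters' processing notes; annotation: not given in the sources used here, and likewise the strand setting. Per the file headers, their 2 deposited DESeq2 comparison tables hold a mean signal, log2 fold changes, a test score and p-values; only their log2 fold changes are quoted.

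The fit used edgeR 4.0.16 in R 4.3.3 (TMM, filterByExpr, robust glmQLFit and glmQLFTest; limma 3.58.1), with 1 mean for each of the 3 groups over the 9 libraries and 6 residual degrees of freedom. The spread was narrow (common biological coefficient of variation 2.74%), and small changes pass. The SE is approximate: the size of the log2 fold change divided by the root of F. CPM are TMM-scaled; likeness used log2 CPM with a prior count of 1. The scripts were tested on simulated data. Alternatives were other scalings, filters, DESeq2 1.42.0, a replicate block, the 6 libraries of a comparison alone, and each library left out.

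The members and lists were chosen with earlier results of these data known. Genes named are the members, Lamp2, detected members of the SOX, SALL and pseudogene lists, the 4 with the smallest p in LAMP2A against VT of each other list at a mean of at least 5 CPM, and the 3 nearest in pattern. Neighbours within 100000 bases were added after the files were seen. Some further genes were named, with their values known, for their share of a marker sum, for low counts or for going against their list. Libraries of a group differed by more than counting noise (chi-square over its degrees of freedom 1.19 to 5.93), and each was kept as 1 replicate. One marker gene is not reported here.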

Additional observations from a re-analysis of the deposited data

How the results depend on the processing

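For each factor and comparison, 17 alternatives kept the direction and the call. Across them the log2 fold change of Sox2 in LAMP2A+DM-αKG against VT ran from -0.14 to -0.09 (largest adjusted p = 0.0138, by edgeR or DESeq2), that of Nanog from -0.15 to -0.11 (0.00526) and that of Sall4 from -0.16 to -0.13 (0.000915). Same-numbered libraries deviated together only weakly (correlations of -0.11 to 0.14), over a range like that of differently numbered ones (-0.148 to 0.165). No pairing by number was seen, but deviations from means of 3 libraries cannot exclude a shared preparation. With the replicate number as a block, 12341, 12065 and 8462 genes were called in LAMP2A against VT, LAMP2A+DM-αKG against LAMP2A and LAMP2A+DM-αKG against VT, in place of 12355, 12081 and 8517, and the block changed no call of a factor. In treated against VT libraries, with each library left out in turn, the log2 ratio of Sox2 to Sall4 differed by -0.00814 to 0.062 and that of Nanog to Sall4 by -0.02023 to 0.0413. Both lowest values came without VT replicate 1 and turned the direction, which had no call. With 3 libraries a group no ratio can pass an exact test, and the labels do not say that libraries are separate cultures.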
